A study of Mus musculus with 5 samples.

Results

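Metallothionein and zinc handling genes were examined in RNA-seq of sorted mouse haematopoietic stem cells (HSCs). The genes were Mt1, Mt2, Mtf1, Slc30a5, Slc30a7, Slc39a1, Slc39a6 and Slc39a7, chosen by symbol from a table of 11643 genes. They were picked with their values in the same libraries known, so their levels and group differences are described here and not tested, and no cut-off separates them from other genes. All 8 genes were in the table and all 8 had a mean of at least 1 FPKM (fragments per kilobase of transcript, scaled to the mapped fragments of the library). They were therefore in the fit of 10570 genes.

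The study compared 3 libraries from control mice with 2 from mice labelled Tle1/3/4-deficient, called mutant-labelled here, all on the C57BL/6 background. The HSCs were sorted from bone marrow as Lin-cKit+Sca1+ CD150+CD48- cells. In the deficient mice the floxed Tle1, Tle3 and Tle4 genes were to be removed by Vav-Cre, a recombinase made throughout the blood system and not in HSCs alone. TLE proteins are co-repressors that other transcription factors bring to DNA. The genotype behind the word control, the age of the animals and whether libraries came from single or pooled animals were not stated in the sources. The spread between libraries may thus be technical.

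The targeted genes did not all follow the labels. Tle3 was at 2.48 to 5.61 FPKM in control libraries, against 32.3 and 31.6 FPKM in the mutant-labelled libraries. Tle4 was at 5.67, 0.0129 and 5.29 FPKM in control libraries, against 0.35 and 0.20 FPKM in the mutant-labelled libraries. The latter were thus below control replicates 1 and 3 but above control replicate 2. Tle1 was below 6 FPKM in every library and overlapped between groups. Values per gene do not show whether the floxed part of a transcript was lost. Every direction below rests on the labels. The libraries summed to between 599100 and 683800 FPKM. From the few low values, the deepest was estimated at 1.46 times the depth of the shallowest, and absolute depth is unknown. Values of 0 occurred in genes that were high elsewhere: 154 genes were at 0 in a single library and at 10 FPKM or more in all the others. A listed 0 need not mean absence of the transcript, and zinc genes with one are given library by library. In bulk RNA, fewer cells of a type and less RNA per cell cannot be told apart.

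Zinc is a structural or catalytic part of many proteins, and cells keep the free ion scarce. Metallothioneins, encoded by Mt1 and Mt2, are small cysteine-rich proteins that bind zinc and copper. Their genes are switched on by the zinc-sensing transcription factor MTF1, and also by glucocorticoids and inflammatory cytokines. Transporters of the SLC39 (ZIP) family bring zinc into the cytosol, and those of the SLC30 (ZnT) family move it out of the cytosol, into vesicles, the Golgi or the medium.

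MTF1 binds metal response elements, so the stretch before the annotated start of each metallothionein gene is shown, with that of Slc30a5, the only other searched gene with a match. The sequences are from RefSeq on GRCm38.p6, which is a later build than the mm9 named for these data, and 7 of the 8 genes had an entry. Slc39a6 had none. Each run is the 250 bases before the start, 5′ to 3′ on the gene's own strand, and capitals mark matches to TGCACNC or TGCGCNC on either strand.

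Mt1, chr8:94178839-94179088, plus strand: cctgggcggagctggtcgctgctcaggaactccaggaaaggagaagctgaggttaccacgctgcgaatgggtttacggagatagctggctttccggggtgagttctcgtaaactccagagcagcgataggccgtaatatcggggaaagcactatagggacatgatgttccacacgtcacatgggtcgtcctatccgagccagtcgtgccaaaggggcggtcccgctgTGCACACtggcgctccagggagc
Mt2, chr8:94172368-94172617, plus strand: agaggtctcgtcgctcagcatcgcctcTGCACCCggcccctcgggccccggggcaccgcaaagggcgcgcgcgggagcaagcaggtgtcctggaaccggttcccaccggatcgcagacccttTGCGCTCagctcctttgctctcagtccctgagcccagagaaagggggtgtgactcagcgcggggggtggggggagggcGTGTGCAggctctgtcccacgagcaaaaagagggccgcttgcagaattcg
Slc30a5, chr13:100833428-100833677, minus strand: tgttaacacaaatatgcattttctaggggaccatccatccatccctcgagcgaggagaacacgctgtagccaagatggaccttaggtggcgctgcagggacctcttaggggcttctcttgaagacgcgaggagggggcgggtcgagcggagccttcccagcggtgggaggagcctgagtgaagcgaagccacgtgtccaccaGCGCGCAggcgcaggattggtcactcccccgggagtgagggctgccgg

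The search covered 300 bases, the 250 shown and the first 50 of the annotated transcript. Mt2 held 4 matches to the metal response element, at -223, -128 and -50 and at 5 counted from the start. Mt1 held 3, at -23 and, within the annotated transcript, at 3 and 21. Slc30a5 held 1, at -48. The other 4 windows searched (Mtf1, Slc30a7, Slc39a1 and Slc39a7) held none of these letters. Of all 32851 windows of this length, 25.7% held at least 1 match, 1.97% at least 3 and 0.517% at least 4. The Mt2 window also held the antioxidant response core TGACNNNGC at -79, as did those of Slc39a1 at -63 and Slc30a5 at 7 (12.4% of all windows). The E-box CACGTG was found in Slc30a5 alone (7.15% of all windows), and the GC box GGGCGG in 6 of the 7 windows, Mt2 being the exception (35.7% of all windows). GENCODE M21 lists 3 coding transcripts of Mt1 whose starts lie up to 159 bases apart. For Mt2 the spread of coding starts was 196 bases, for Mtf1 574, for Slc39a7 162 and for Slc30a5 87. A window tied to 1 start covers part of what lies upstream of the others. Counts and absences of every motif thus hold for the start used and not for the whole promoter. Matches placed within the annotated transcript may lie upstream of another start. The matches are described from the letters and no binding was measured.

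**Figure D1:**
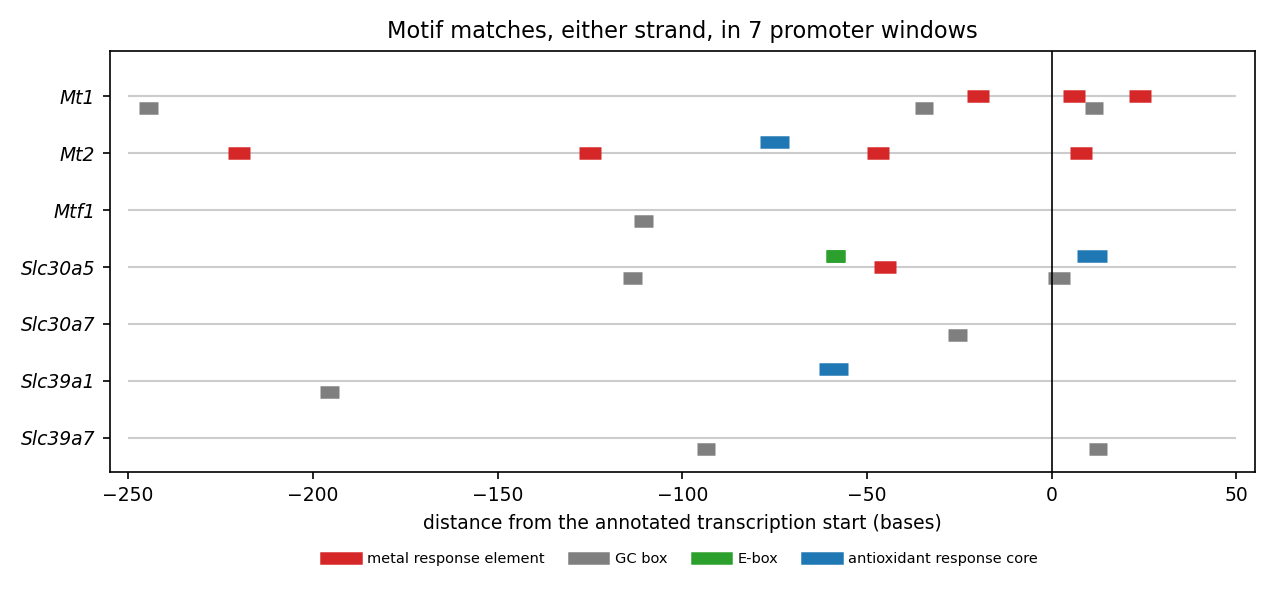
Position of motif matches on either strand (coloured blocks; the 2 forms of the metal response element share a colour) in the promoter windows of 7 genes, against the distance from the annotated transcription start in bases. Mt2 holds 4 metal response element matches, Mt1 holds 3, Slc30a5 holds 1 and the other 4 windows hold none.

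Mt1 had the largest difference of the 6 genes that were above 0 in every library. It was at 13.0, 16.5 and 17.9 FPKM in control replicates 1, 2 and 3 and at 148 and 133 FPKM in mutant-labelled replicates 1 and 2. Both mutant-labelled libraries thus lay far above all controls, and the libraries within each group were close together. The means were 15.8 ± 2.53 and 140.3 ± 10.6 FPKM (SD, n = 3 and 2), a ratio of 8.88. On the log2(FPKM + 1) scale the difference was 3.08 (SE 0.34), or 3.18 above the median of all genes. Of the 10570 genes fitted, 100 (0.946%) had a difference at least this high. Leaving out each library in turn gave 2.96 to 3.17. Among all genes of a library, ordered from the highest level, Mt1 stood at place 4654 to 5813 in the controls and at place 733 and 687 in mutant-labelled replicates 1 and 2. No 50-base stretch of the longest coding Mt1 transcript occurred in a transcript of another gene in GENCODE M21, Mt2 included.

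Mt2, which lies 5513 bases from Mt1 on the same chromosome, did not follow it in every library. It was listed at 0 in control replicates 1 and 2 and in mutant-labelled replicate 1, at 1.67 FPKM in control replicate 3 and at 28.9 FPKM in mutant-labelled replicate 2. The mutant-labelled libraries therefore differed for Mt2, listed at 0 in replicate 1 and highest in replicate 2, while they were close for Mt1. No fold is given, since 3 of the 5 values are 0. The longest coding transcript of Mt2 spans 511 bases, against 1085 for Mt1, and the annotated Mt2 locus overlaps an antisense transcript on the opposite strand. The sources used here do not give whether the authors' counting used the strand.

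Mtf1, which encodes the zinc-sensing activator of both genes, varied widely among the controls. It was at 17.0, 2.34 and 2.73 FPKM in control libraries, against 20.9 and 15.4 FPKM in the mutant-labelled libraries. Control replicate 1 stood inside the range of the mutant-labelled libraries and the other controls were well below it. The log2 difference was 1.64 (SE 0.85). Leaving out control replicate 1 raised it to 2.42, and leaving out control replicate 2 lowered it to 1.21. The Mtf1 locus overlaps the coding gene 1110065P20Rik on the opposite strand, which was at 0, 6.21 and 25.5 FPKM in control libraries, against 18.6 and 6.54 FPKM in the mutant-labelled libraries.

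**Figure D2:**
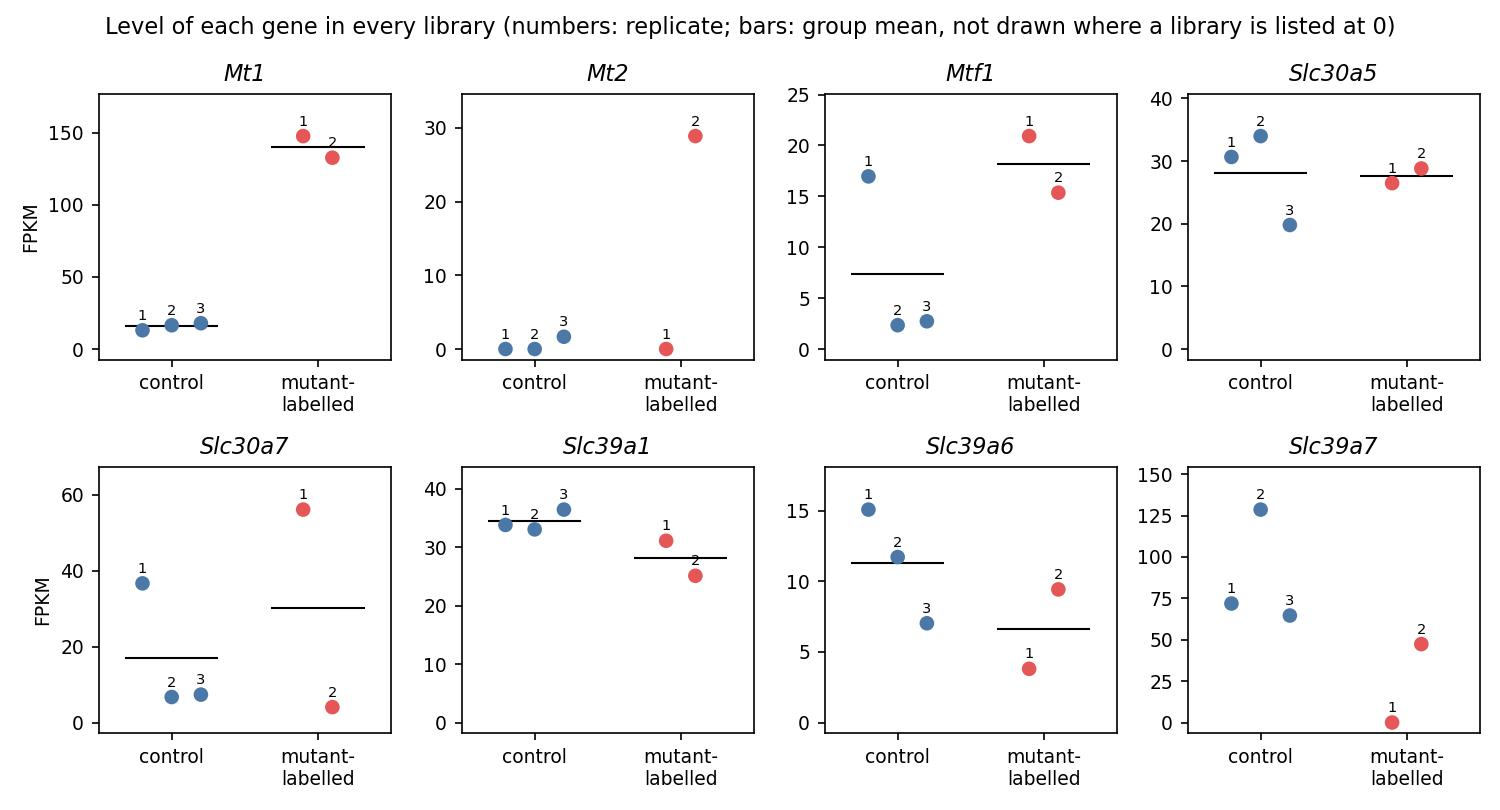
FPKM of each of the 8 genes in every library (points; blue, control; red, mutant-labelled; numbers, replicate), with a bar at the group mean except for Mt2 and Slc39a7, which are listed at 0 in some libraries. Mt1 lies at 13.0 to 17.9 FPKM in control libraries, against 133 and 148 FPKM in mutant-labelled libraries, while most of the other genes overlap between groups.

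The exporters Slc30a5 and Slc30a7 encode ZnT5 and ZnT7, which load zinc into the early secretory pathway. Slc30a5 was at 30.6, 34.0 and 19.8 FPKM in control libraries, against 26.5 and 28.8 FPKM in the mutant-labelled libraries. The mutant-labelled values lay inside the control range, with means of 28.1 ± 7.42 and 27.6 ± 1.65 FPKM (SD, n = 3 and 2). The log2 difference was 0.0086 (SE 0.40), and its sign changed with the library left out (-0.22 without control replicate 3, 0.16 without control replicate 2).

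Slc30a7 was at 36.7, 6.72 and 7.35 FPKM in control libraries, against 56.1 and 4.06 FPKM in the mutant-labelled libraries. The highest and the lowest of the 5 values thus both came from mutant-labelled libraries, 13.8-fold apart. High values occurred in replicate 1 of each group, the same pair of libraries in which Mtf1 was highest. The log2 difference of 0.34 (SE 1.12) became -1.41 without mutant-labelled replicate 1 and 2.09 without replicate 2, so it rests on which of these libraries is used. Its annotated locus overlaps 2 processed pseudogenes and a microRNA gene on the opposite strand.

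Among the importers, Slc39a1, which encodes the plasma membrane transporter ZIP1, was the steadiest gene of the set. It was at 33.8, 33.1 and 36.5 FPKM in control libraries, against 31.1 and 25.1 FPKM in the mutant-labelled libraries. Both mutant-labelled values lay below all controls, though replicate 1 by under 2 FPKM. The means were 34.5 ± 1.78 and 28.1 ± 4.25 FPKM (SD, n = 3 and 2), with a log2 difference of -0.29 (SE 0.35), or -0.19 from the median of all genes. It was -0.44 without mutant-labelled replicate 1 and -0.14 without replicate 2. Of the 50-base stretches of its transcript, 21.8% also occur in the pseudogene Slc39a1-ps, so its reads could have been split.

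Slc39a6 encodes ZIP6, an importer of the LIV-1 subfamily. It was at 15.1, 11.7 and 7.02 FPKM in control libraries, against 3.80 and 9.42 FPKM in the mutant-labelled libraries. Control replicate 3 lay between the mutant-labelled libraries, so the groups overlapped. The log2 difference was -0.74 (SE 0.66) and ranged from -1.30 to -0.18 as libraries were left out. Elp2, a coding gene that overlaps it on the opposite strand, was higher in all libraries, at 50.9 to 76.3 FPKM.

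Slc39a7 encodes ZIP7, which releases zinc from the endoplasmic reticulum and Golgi. It was at 71.9, 129 and 64.6 FPKM in the controls, at 47.4 FPKM in mutant-labelled replicate 2 and was listed at 0 in mutant-labelled replicate 1. In the controls it was the highest of the 8 genes. Both mutant-labelled values were below all controls, but the 0 went with values above 40 FPKM in all the other libraries, a pattern shown by 2 genes at 0 in that library and by 45 genes over the 5 libraries. No fold is given. The transcript Gm20427, on the same strand, shares 82.2% of the 50-base stretches of Slc39a7, so the 2 could not be separated by short reads over most of their length.

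Read from the fit over all genes (limma, Benjamini-Hochberg adjusted p under 0.05), 0 of the 8 genes were called, where 0.0189% of all genes were. At an unadjusted p under 0.05 there were 2, Mt1 and Slc39a7, against 8.45% of all genes. By position, 1 of 8 (Mt1) lay above every control in both mutant-labelled libraries, against 10.2% of all genes, and 2 of 8 (Slc39a1 and Slc39a7) lay below every control, against 15.9%. These counts use the contrast that was known when the genes were picked, and nothing is read from them. The median log2 difference of all genes was -0.10 on the FPKM scale of the table and 0.015 once libraries were rescaled by the median of ratios. The 6 genes given a difference above kept their sign under that scaling and under quantile normalization.

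The rest of the pathway was described from a list of 21 further metallothioneins and zinc transporters, of which 11 were tested. Of these 11, 0 passed (limma, adjusted over all genes) and 1 had an unadjusted p under 0.05, against 8.45% of all genes. Their median log2 difference was -0.035, 4 being positive and 7 negative, beside -0.10 for all genes. Over all 10570 genes tested, 4682 were positive and 5888 negative. Mt3, Mt4, the plasma membrane zinc exporter Slc30a1, and 7 other transporters had no entry under these symbols among the 11643 genes, so their levels are unknown here.

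Slc39a11, which encodes ZIP11, an importer of internal membranes, was the most abundant of the 11. It was at 83.1, 72.0 and 55.2 FPKM in control libraries, against 39.6 and 37.8 FPKM in the mutant-labelled libraries, all below the controls. The log2 difference was -0.82 (SE 0.32) and did not pass (limma, adjusted p = 0.548). Slc39a10, encoding ZIP10, was at 10.9, 13.0 and 9.94 FPKM in the controls, with 3.03 FPKM in mutant-labelled replicate 1 and 9.64 FPKM in replicate 2, just under the lowest control (adjusted p = 0.725).

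Slc39a4, the importer of dietary zinc in the gut, was low throughout. It was listed at 0 in control replicate 1, at 0.0291 and 3.33 FPKM in control replicates 2 and 3, and at 4.88 and 3.85 FPKM in the mutant-labelled libraries. Slc39a14, which also carries iron, was at 5.64, 4.67 and 2.31 FPKM in control libraries, against 2.45 and 0.0216 FPKM in the mutant-labelled libraries, so the groups overlapped. Slc39a3 was at 5.16 to 6.92 FPKM in control libraries, against 7.24 and 8.73 FPKM in the mutant-labelled libraries, above all controls by a small margin. Slc30a4 was listed at 0 in control replicate 1, stood at 1.80 and 1.15 FPKM in control replicates 2 and 3, and at 3.12 and 0.787 FPKM in mutant-labelled replicates 1 and 2. The others (Slc39a8, Slc39a9, Slc39a13, Slc30a6 and Slc30a9) overlapped between groups. Slc30a6, whose product pairs with ZnT5, was at 9.37, 18.3 and 8.96 FPKM against 9.36 and 5.62 FPKM.

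**Figure D3:**
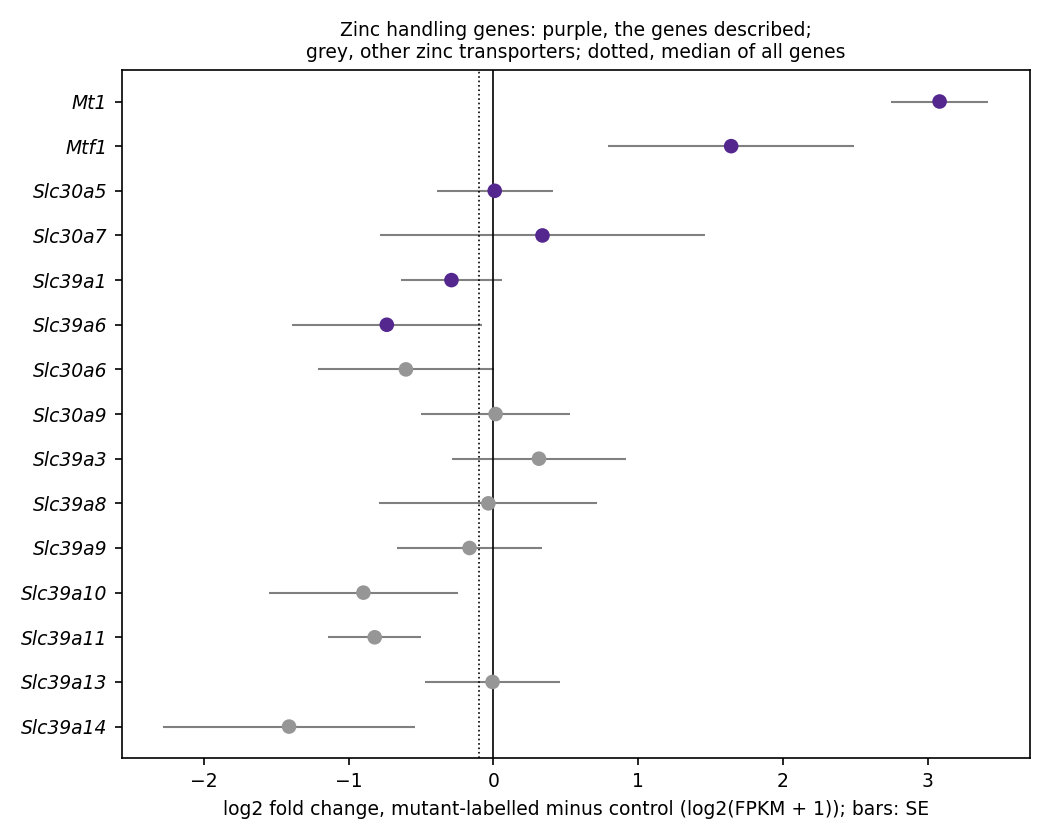
Log2 difference between mutant-labelled and control libraries on the log2(FPKM + 1) scale, with bars of 1 SE, for 6 of the 8 genes (purple) and 9 other zinc transporters (grey); the dotted line is the median of all genes. Mt1 stands at 3.08 (SE 0.34), and Mt2, Slc39a7, Slc39a4 and Slc30a4 are left out because they are listed at 0 in some libraries.

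Summed over the 11 measured SLC39 genes, importer levels were 278, 302 and 227 FPKM in the controls and 132 and 180 FPKM in the mutant-labelled libraries. Much of that gap lay in Slc39a7 with its value of 0. Without Slc39a7 the sums were 206, 173 and 162 FPKM against 132 and 133 FPKM, so the mutant-labelled libraries were still below all controls. Without Slc39a11 as well they were 123, 101 and 107 against 92.9 and 95.0 FPKM. The 5 measured SLC30 genes summed to 95.3, 78.9 and 47.2 FPKM in the controls and to 113 and 51.7 FPKM in the mutant-labelled libraries, with no separation of the groups, and Slc30a7 set most of the spread between the mutant-labelled libraries. These sums include genes picked with their values known and carry no test.

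**Figure D4:**
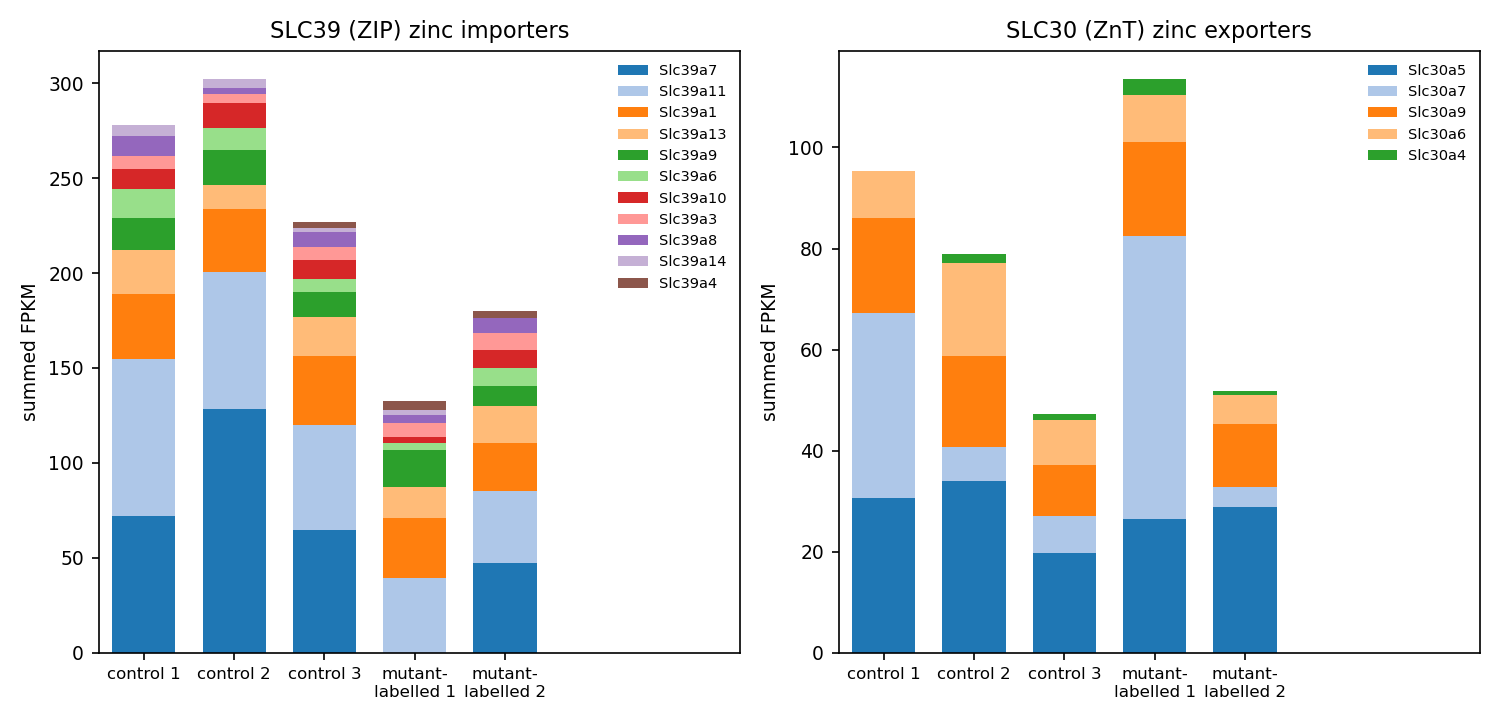
Summed FPKM of the 11 SLC39 (left) and 5 SLC30 (right) genes in each library, stacked by gene. Importer sums are 227 to 302 FPKM in controls and 132 and 180 FPKM in mutant-labelled libraries, the latter including a 0 for Slc39a7 in replicate 1, and exporter sums overlap.

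Genes that share inducers or metals with the metallothioneins were counted for comparison, from lists written from general knowledge. None passed over all genes (limma). Over all 10570 genes tested, 8.45% had an unadjusted p under 0.05 and 4682 had a positive log2 difference. Of the 11 tested genes of the metal and oxidant stress response, 1 had an unadjusted p under 0.05, and the median log2 difference was 0.52, 7 being positive. Gclm, a subunit of the enzyme that starts glutathione synthesis, was at 59.4, 54.2 and 97.4 FPKM in control libraries, against 118 and 135 FPKM in the mutant-labelled libraries (adjusted p = 0.546). Hsf1, the heat shock activator, was at 64.0 to 71.1 FPKM in control libraries, against 73.2 and 36.5 FPKM in the mutant-labelled libraries (adjusted p = 0.804).

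Of the 10 glucocorticoid response genes, 0 had an unadjusted p under 0.05 and the median was 0.047. Tsc22d3, a direct target of the glucocorticoid receptor, was at 175 to 253 FPKM in control libraries, against 127 and 207 FPKM in the mutant-labelled libraries. Dusp1 was at 25.6 to 52.4 FPKM in control libraries, against 15.1 and 365 FPKM in mutant-labelled replicates 1 and 2. Of the 8 cytokine and STAT3 response genes, 2 had an unadjusted p under 0.05, against 8.45% of all genes. These went 1 in each direction, and the median of the 8 genes was 0.31. Junb, an AP-1 subunit, was at 45.6 to 50.8 FPKM against 94.7 and 153 FPKM (adjusted p = 0.433), and Stat3 at 39.1 to 68.4 FPKM against 51.7 and 83.3 FPKM (adjusted p = 0.81).

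Genes for the handling of other metals had medians near 0. The 10 tested copper genes had a median log2 difference of 0.073, with 1 at an unadjusted p under 0.05, against 8.45% of all genes. Sod1, the copper and zinc superoxide dismutase, was at 456 to 726 FPKM in control libraries, against 706 and 733 FPKM in the mutant-labelled libraries, and Cox17, a copper chaperone of mitochondria, at 188 to 391 against 601 and 242 FPKM. The 12 iron genes had a median of 0.016, again with 1 at an unadjusted p under 0.05. The ferritin gene Ftl1 ranged from 2120 to 2663 FPKM in controls, with 2001 and 2827 FPKM in the mutant-labelled libraries, and its partner Fth1 from 1567 to 1783, with 1408 and 2065 FPKM.

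Many markers of other blood cells were higher in the mutant-labelled libraries, although 0 of those tested passed over all genes (limma). Over all 10570 genes tested, 4682 had a positive log2 difference and 10.2% stood above every control. All 20 granulocyte-monocyte markers were measured, and 20 of 20 had a positive log2 difference (median 4.07), 14 of them above all controls in both mutant-labelled libraries. They summed to 1030 to 3483 FPKM in the controls and to 11970 and 70790 FPKM in mutant-labelled replicates 1 and 2, S100a8 being the largest part at 7679 and 37600 FPKM. The sum was 5.92-fold higher in mutant-labelled replicate 2 than in replicate 1, but the markers did not rise alike. Prtn3 was at 450 and 468 FPKM in these libraries and Elane at 0.985 and 1293 FPKM. Only Ly86 of this list was at 0 in some library.

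Of the 14 megakaryocyte-platelet markers measured, of 16, 11 were positive (median 1.38) and 8 stood above all controls. They summed to 876 to 1713 FPKM in the controls and to 9138 and 4387 FPKM, mostly Pf4 at 7503 and 3023 FPKM, with Selp and Tubb1 at 0 in some library. Of the 12 erythroid markers measured, of 16, all 12 were positive (median 1.91) and 5 stood above all controls. Klf1, an erythroid transcription factor, was at 3.19, 3.21 and 5.42 FPKM in control libraries, against 15.0 and 94.4 FPKM in mutant-labelled replicates 1 and 2. The erythroid sums overlapped, at 1056 to 1406 FPKM against 1380 and 2009 FPKM, and Car2 made up most of them in the controls at 792 to 1076 FPKM. Alas2, Ermap and Rhag were at 0 in some library.

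Of the 9 macrophage and dendritic cell markers measured, of 13, 7 were positive (median 0.61) and 4 stood above all controls. C1qa, a complement subunit of macrophages, was at 0.0749, 5.89 and 8.83 FPKM in control libraries, against 25.4 and 37.6 FPKM in the mutant-labelled libraries. The sums overlapped, at 120 to 256 FPKM and 176 and 312 FPKM, with Adgre1 and Cd68 at 0 in some library. For 3 T and NK markers of 11 the sums were 35.3 to 105 FPKM in the controls and 378 and 194 FPKM, most of it Nkg7, a cytotoxic granule gene, at 34.0 to 105 FPKM and 345 and 193 FPKM. Cd4 and Gzmb were at 0 in some library, and Cd4 was negative.

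The 6 mast cell and basophil markers measured, of 10, summed to 152 to 192 FPKM in the controls and to 228 and 274 FPKM, with 5 positive (median 0.70) and 2 above all controls. Gata2 made up most of this, at 114 to 172 FPKM in the controls and 222 and 194 FPKM, so the sums mostly follow that gene. Prss34, the other marker above all controls, was at 0 in every control and at 0.0579 and 24.4 FPKM in mutant-labelled replicates 1 and 2. Cpa3, Fcer1a, Hdc and Il4 were also at 0 in some library, and Il4 stood below all controls. Endothelial and stromal markers overlapped in their sums, with 1 of 4 tested markers positive, and Kdr, Cxcl12 and Col1a1 were at 0 in some library. The part of these markers in the values of Mt1 and Mt2 was not tested.

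The sort genes were present in all libraries. Kit was at 149 to 185 FPKM in control libraries, against 102 FPKM in both mutant-labelled libraries, and Slamf1, which encodes CD150, at 14.8 to 23.9 against 31.8 and 31.03 FPKM. Ly6a, which encodes Sca-1, was at 57.8 to 199 FPKM in the controls, 155 FPKM in mutant-labelled replicate 1 and 14.0 FPKM in replicate 2, the library with the highest Mt2. Cd48, the marker the cells had to lack, was at 3.22 to 13.0 FPKM in control libraries, against 7.19 and 23.4 FPKM in the mutant-labelled libraries.

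The genes most like Mt1 and Mt2 were sought among those with a mean of at least 10 FPKM, by the root mean square difference of log2(FPKM + 1) over the 5 libraries after centring each gene on its own mean. For Mt1 the closest of 6609 genes was Tle3 (0.27), the targeted gene that was higher in both mutant-labelled libraries, followed by Tuba8 (0.50) and Emilin2 (0.50). Tuba8, an alpha tubulin, was at 36.8, 34.7 and 19.6 FPKM in control libraries, against 196 and 162 FPKM in the mutant-labelled libraries. Emilin2, an extracellular matrix glycoprotein, was at 2.73, 8.48 and 3.34 against 33.0 and 53.8 FPKM. For Mt2 the closest genes were Slfn1 (0.34), Mapk13 (0.38) and Ncf1 (0.50). Slfn1, a Schlafen family gene, was at 0.0394, 0.142 and 3.49 FPKM in the controls, at 0 in mutant-labelled replicate 1 and at 50.2 FPKM in replicate 2. Ncf1, a subunit of the phagocyte NADPH oxidase, was at 2.89 to 7.43 FPKM in the controls, 5.97 FPKM in mutant-labelled replicate 1 and 97.1 FPKM in replicate 2. That the Mt1-like genes were high in both mutant-labelled libraries and the Mt2-like genes in replicate 2 alone follows from how they were chosen. With 5 libraries many genes can come this close, and the likeness is a description.

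**Figure D5:**
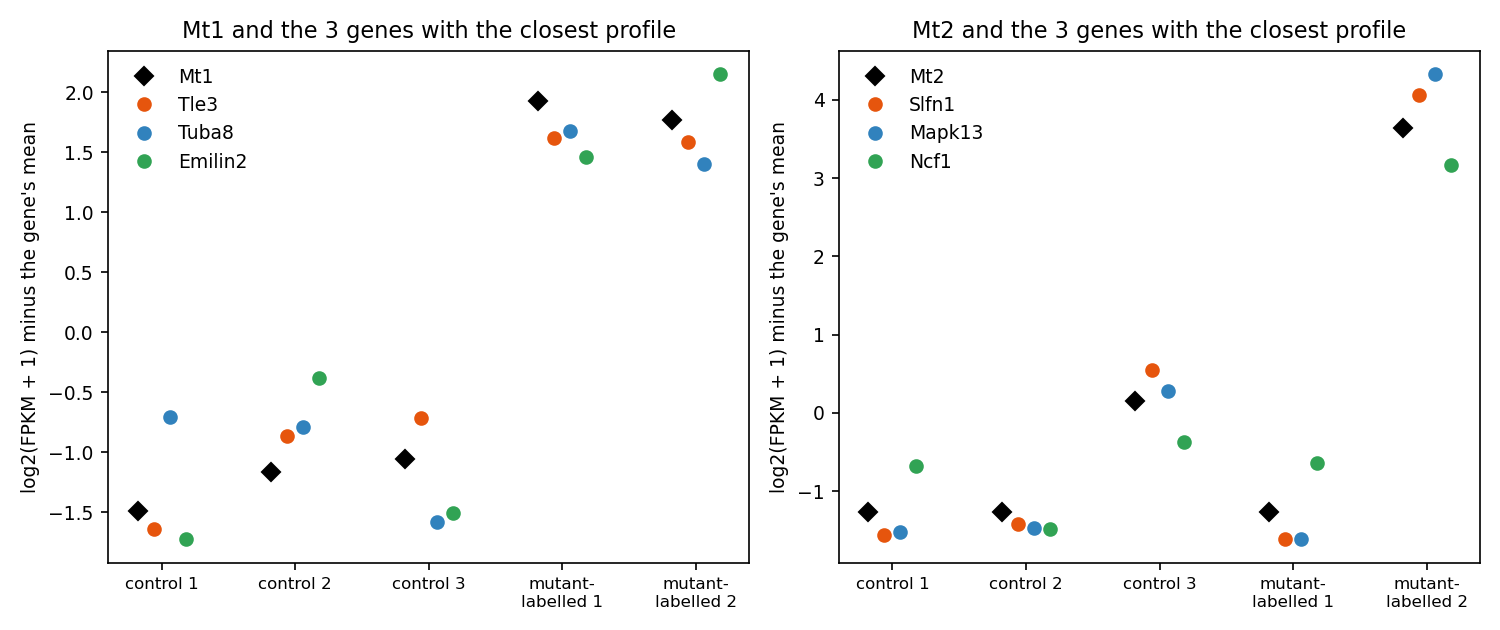
Log2(FPKM + 1) minus each gene's own mean in each library for Mt1 (left, black diamonds) and Mt2 (right, black diamonds) and for the 3 genes with the closest profile (coloured circles). Mt1 and its closest genes are high in both mutant-labelled libraries, and Mt2 and its closest genes in replicate 2, as follows from choosing genes by profile.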

How the data were processed

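RNA-seq libraries of sorted HSCs, 3 control and 2 Tle1/3/4-deficient by their titles, were analysed from 1 table of FPKM per gene symbol deposited by the authors. The submitters' processing notes name mm9, TopHat and edgeR, with no version or role. The sources used here do not give the annotation, the FPKM tool or any filter. The genes and lists were chosen with earlier results of these data known.

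Of 11643 genes, the 10570 whose mean reached 1 FPKM were fitted with limma 3.58.1 (R 4.3.3) on the log2(FPKM + 1) scale. The model held the group alone, with trended eBayes moderation, two-sided p-values, Benjamini-Hochberg adjustment over all genes tested and a threshold of 0.05. Fold changes on this scale understate low genes. The fit was tested on simulated data. Named were all 8 genes, other measured zinc transporters, list members past the threshold or otherwise the 2 highest, the sort genes and the 3 closest profiles to Mt1 and Mt2. The genes overlapping Mtf1 and Slc39a6, the markers at 0 and the other markers of blood cells were named after their values were seen. Relative depth came from the commonest ratio of values under 0.3 FPKM (tolerance 0.5%), shared by 12.3% to 34.0% of the low genes. Gene overlaps and shared 50-base stretches used GENCODE M21 (GRCm38). Alternatives covered the pseudocount, filter, scaling, moderation, replicate block and leaving out each library. Python 3.11.15, pandas 2.3.3 and matplotlib 3.10.9 were used.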

Additional observations from a re-analysis of the deposited data

How the results depend on the processing

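The number of genes past the threshold, 2 in all (1 higher, 1 lower), was 0 with a pseudocount of 0.1 or with no filter, 4 with a pseudocount of 5 or after median-of-ratios scaling (3 higher, 1 lower each), 1 with eBayes without trend, 5 with robust eBayes, and 0 to 5 when each library was left out. It was 3 (2 higher, 1 lower) after quantile normalization. Of the 8 genes described, 0 were called as reported, and 1, Mt1, with a pseudocount of 5, after median-of-ratios scaling, with robust eBayes or with the replicate block. Mt1 was not called when any library was left out, and as it was picked with this contrast known these calls support nothing. With the replicate number as a block, 22 genes passed (20 higher, 2 lower), among them 7 list genes, all granulocyte-monocyte markers, where 0 list genes passed otherwise. That fit takes nothing from control replicate 3, which has no partner. The labels state no pairing of same-numbered libraries. Deviations of these libraries from their group means correlated at 0.035 and 0.0069 over genes. With 2 mutant-labelled libraries the deviations mirror each other, so these values are not separate checks. They cannot show whether same-numbered libraries were handled together. The log2 difference of Mt1 was 2.81 with a pseudocount of 5, and 2.96 to 3.17 as libraries were left out. That of Slc39a1 was -0.44 to -0.14. The median over the 11 other zinc transporters was -0.26 with the replicate block and -0.26 to 0.15 as libraries were left out. Leaving out a mutant-labelled library leaves 1, assumed to vary like the controls. The causes were not tested. Depth is unknown, so counting error has no interval.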
